A study of Mus musculus with 6 samples.

Results

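The 36 core interferon-stimulated genes are antiviral effectors, the genes of the ISG15 pathway and the STAT and IRF factors that type I interferon switches on. They were chosen by symbol, and all 36 were found among the 49671 genes of the count table. RNA-seq measured them in mouse OT-I CD8 T cells, in 3 libraries with the label CD73 KO and 3 with the label WT. OT-I cells carry a transgenic receptor for the SIINFEKL peptide of ovalbumin, and CD73 is an enzyme of the cell surface that makes adenosine from AMP. Splenic CD8 T cells of both genotypes had the peptide at 10 ng/mL added daily for 5 days, with IL-7 and IL-15 at 5 ng/mL each. Both genotypes therefore share the transgenic receptor, the peptide and the cytokines, and total RNA went into a stranded library kit. This culture is an in vitro model of exhaustion, with 1 time point and no unstimulated control among the samples. The labels give neither the CD73 allele nor the age or sex of the mice, and leave unsaid if replicates are separate animals or cultures. P-values therefore reflect only how far these samples spread, and that spread may be technical.

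Type I interferon binds the receptor IFNAR, whose kinases JAK1 and TYK2 activate STAT factors. The complex ISGF3, which holds STAT2 and IRF9, then binds interferon-stimulated response elements in front of its target genes. The products block viral RNA, viral entry and viral budding, and a few of them (IRF7, STAT2, IRF9, USP18) feed back on the pathway. Interferon gamma uses a receptor of its own and reaches part of the same genes. CD8 T cells carry receptors for both kinds of interferon.

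The libraries held 6934150 to 19382950 counts, so that 1 count equalled 0.0532 to 0.142 CPM (counts relative to library size, scaled with TMM factors). Values below are listed in the order of replicates 1, 2 and 3. Nt5e, which encodes CD73 (ENSMUSG00000032420, chromosome 9, 88327197 to 88372092, mm10), was at 3.67, 8.45 and 8.47 CPM in CD73 KO, against 22.6, 5.22 and 37.4 in WT (log2 fold change -1.67 ± 0.72 (SE), edgeR adjusted p = 0.534). The library labelled WT replicate 2 lay within the CD73 KO range, against its label, and the counts of genes are therefore also given without it. Markers of the T cells themselves (Cd8a, Cd8b1, Cd3e, Trac and Trbv12-1) summed to 2799 to 3020 CPM in CD73 KO, against 2482 to 3054 in WT.

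All 36 genes had a higher level in CD73 KO. In bulk RNA, fewer cells of a type and less RNA per cell cannot be told apart. Their log2 fold changes had a median of 0.94 and ran from 0.27 to 3.93. Of all 12242 tested genes 52.3% were higher, with a median of 0.01. At least a 2-fold difference was reached by 16 of the 36 genes, against 1.49% of all tested genes. An unadjusted p under 0.05 on the higher side was found for 31 of the 36, against 5.75% of all tested genes (edgeR's quasi-likelihood test), and on the lower side for 0, against 3.89%. Every CD73 KO library lay above every WT library for 19 of the 36, against 7.59% of all tested genes. After adjustment over all tested genes (Benjamini-Hochberg) 0 of the 36 passed in edgeR, where 0.0572% of all genes did. The adjusted p-values ran from 0.0583 for Uba7 to 0.685 for Ifitm3. The same threshold was passed by 0 of the 36 with limma-voom (0.0327% of all genes on the higher side), 11 with DESeq2 (0.625%) and 20 with edgeR without a filter on low counts (1.05%). With the library labelled WT replicate 2 left out, the median was 1.06, 28 genes had an unadjusted p under 0.05 (2.96% of all genes did) and 24 did not overlap between genotypes (9.94% of all genes did not, with 3 libraries against 2). Without CD73 KO replicate 1 only 19 genes had an unadjusted p under 0.05 (5.19% of all genes), and the median was 0.80.

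**Figure D1:**
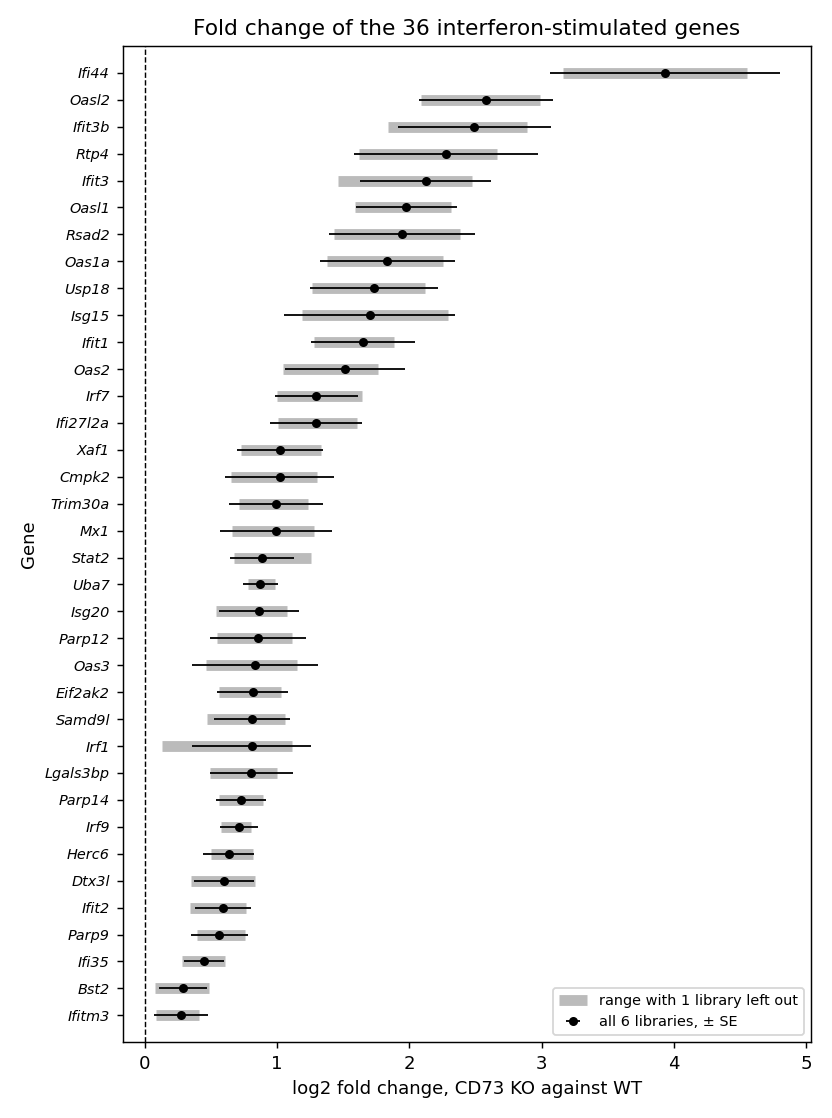
Log2 fold change of each gene, CD73 KO against WT (x axis), with all 6 libraries (points, bars ± SE) and the range of the 6 fits that leave out 1 library (grey). All 36 points lie above 0, from 0.27 for Ifitm3 to 3.93 for Ifi44, and the grey ranges of Bst2, Ifitm3 and Irf1 reach down to 0.08, 0.08 and 0.13.

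Of the 36 genes, 5 reached the filter on low counts in fewer than 3 WT libraries (Ifit3b, Oas2, Oasl2, Rsad2 and Ifi44). Their entry into the test therefore leaned on the CD73 KO libraries. These 5 had log2 fold changes of 1.52 to 3.93, so all are among the 16 genes with at least a 2-fold difference. Among the other 31 the median log2 fold change was 0.86. An edgeR unadjusted p under 0.05 on the higher side was found for 26 (5.75% of all tested genes), and 15 did not overlap (7.59%). Across the 36 genes the fold change was larger where the mean level was lower (Spearman rho -0.67, n = 36 genes). This is a description over genes that share the same 6 libraries, and low levels carry larger errors. Per kilobase of annotated exon, Ifi27l2a had the highest level, at 1237 CPM per kb in CD73 KO and 506 in WT (means of 3 libraries). Bst2 followed at 124 and 102 CPM per kb and Lgals3bp at 99.3 and 57.0. The lowest level per kilobase in WT was that of Ifi44, at 0.0948 CPM per kb, against 1.26 in CD73 KO.

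**Figure D2:**
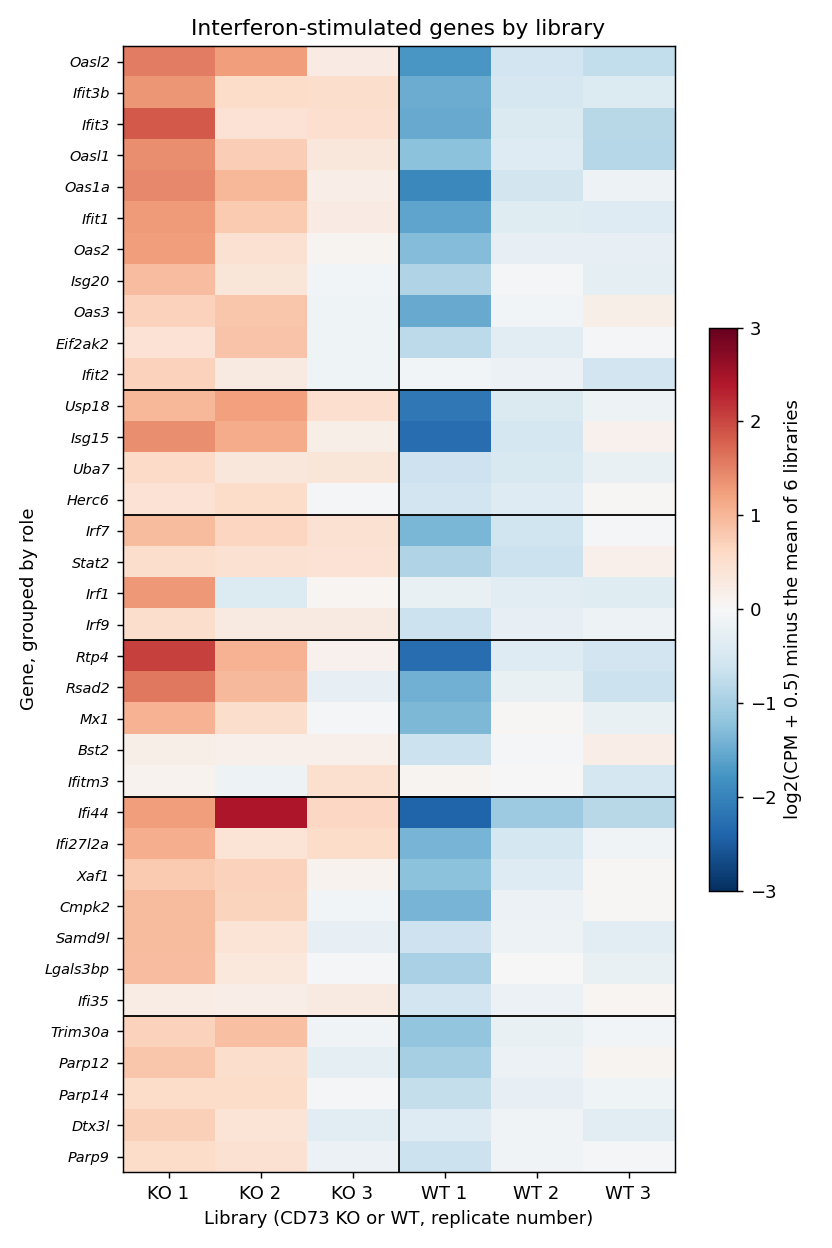
Level of the 36 genes (rows, grouped by role) in each library (columns), as log2(CPM + 0.5) minus the mean of the 6 libraries (colour). CD73 KO replicate 1 is the highest library for 27 genes and WT replicate 1 the lowest for 33.

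The same libraries were the highest or lowest for most of the 36 genes. WT replicate 1 was the lowest of all 6 libraries for 33 of the 36 genes, where it was the lowest for 12.9% of all tested genes. CD73 KO replicate 1 was the highest for 27 of the 36, against 21.8% of all tested genes. On the log2(CPM + 0.5) scale the median distance of the 36 genes from their genotype's mean was 0.42, 0.02 and -0.47 in CD73 KO and -0.61, 0.25 and 0.34 in WT. The summed level of the 36 genes was 4178, 3301 and 2551 CPM in CD73 KO (mean 3343 ± 814, SD, n = 3), and the WT libraries had 1297, 1990 and 2173 CPM (mean 1820 ± 462, SD, n = 3). The groups did not overlap in this sum, and CD73 KO replicate 3 stood nearest to the WT libraries. CD73 KO replicate 3 was the lowest CD73 KO library for 29 genes (35.1% of all tested genes) and WT replicate 3 the highest WT library for 22 (39.7%). Totals were 19382950, 14867558 and 10202128 counts in CD73 KO, where the deepest library had the highest sum. In WT they were 13039990, 9510879 and 6934150, and the deepest library had the lowest sum. Each CD73 KO library was deeper than the WT library of the same number. The part of depth in the order of the libraries was not tested. With CD73 KO replicate 1 and WT replicate 1 both left out, the median log2 fold change was 0.61, all 36 genes were still higher in CD73 KO, and 19 had an unadjusted p under 0.05 (3.73% of all genes).

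The response element is a repeat of the letters GAAA, and the sequences just before the start sites show where it is spelled out. RefSeq windows on GRCm38.p6, from 250 bases before to 50 after a start, were found for 29 of the 36 genes. The letters GAAA, any 2 bases and GAAA again, searched on both strands with overlaps allowed, occurred in 12 of these 29 genes (41.4%), against 3.99% of 27025 genes with a window. By window the figures were 13 of 35 (37.1%) against 3.44% of 32851. The letters TTCNNNGAA, a form of the site bound after interferon gamma, occurred in 8 of the 29 genes (27.6%) and in 9.55% of all genes. The median log2 fold change was 1.32 for the 12 genes with the GAAA repeat and 0.86 for the 17 without. The order differed for an edgeR unadjusted p under 0.05, found for 9 of the 12 and 16 of the 17 (5.75% of all tested genes). The groups did not overlap for 6 of the 12 and 8 of the 17 (7.59% of all tested genes). Ifit3b and Rsad2 among the 12, and Oasl2 and Ifi44 among the 17, entered the test leaning on the CD73 KO libraries. The medians and counts of both sets include them. A match describes letters in a window and not a bound site. The stretches below lie upstream of the starts of genes of 4 of the role groups, read 5′ to 3′ along the gene's strand, with the matches in capitals. Those of Ifit1 (chr19:34640770-34640828), Ifit3 (chr19:34583358-34583431), Ifit3b (chr19:34607754-34607827) and Stat2 (chr10:128270261-128270300) are on the plus strand. Those of Isg15 (chr4:156200860-156200911), Oas1a (chr5:120907526-120907560), Oas3 (chr5:120777710-120777749), Rsad2 (chr12:26456548-26456587) and Bst2 (chr8:71537572-71537617) are on the minus strand.
Ifit1: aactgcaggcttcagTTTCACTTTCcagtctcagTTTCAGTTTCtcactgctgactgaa
Ifit3: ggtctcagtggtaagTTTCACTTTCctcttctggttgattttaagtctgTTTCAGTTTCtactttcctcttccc
Ifit3b: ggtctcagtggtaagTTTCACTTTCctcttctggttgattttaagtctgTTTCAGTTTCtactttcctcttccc
Isg15: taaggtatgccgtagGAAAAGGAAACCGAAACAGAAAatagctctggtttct
Oas1a: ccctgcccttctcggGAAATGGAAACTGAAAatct
Oas3: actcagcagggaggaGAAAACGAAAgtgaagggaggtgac
Rsad2: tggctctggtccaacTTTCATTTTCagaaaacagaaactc
Bst2: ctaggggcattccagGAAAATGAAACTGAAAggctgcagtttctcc
Stat2: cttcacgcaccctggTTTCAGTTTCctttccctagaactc
The stretches of Ifit3 and Ifit3b are letter for letter the same over 74 bases. Isg15 holds 3 overlapping matches, and Oas1a and Bst2 hold 2 each.

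The STAT and IRF factors were higher in CD73 KO by 0.71 to 1.30 on the log2 scale. Irf7 (chromosome 7, 141262706 to 141266481), the factor that amplifies interferon production, was at 122, 98.2 and 86.3 CPM in CD73 KO, against 24.0, 41.6 and 60.5 in WT. Its groups did not overlap, and the log2 fold change was 1.30 ± 0.31 (SE; adjusted p = 0.328). Stat2, a subunit of ISGF3, was at 78.6, 74.3 and 73.1 CPM in CD73 KO, against 28.9, 34.3 and 60.4 in WT. Its log2 fold change was 0.89 ± 0.24 (edgeR adjusted p = 0.346). The CD73 KO libraries were close to each other, while WT replicate 3 lay apart from the other WT libraries. Leaving out WT replicate 3, the WT library nearest to CD73 KO, had to raise the fold change, so that fit is not independent support. It gave 1.25 with an edgeR adjusted p of 0.0118 (1.97e-07 to 0.999 over all alternatives). In that fit 0.0477% of all genes passed on the higher side. Irf9, the DNA-binding subunit of ISGF3, was at 115, 95.8 and 95.0 CPM in CD73 KO, against 50.5, 66.1 and 70.6 in WT (0.71 ± 0.14, adjusted p = 0.187), again without overlap. Irf1, a factor that interferon gamma and inflammatory signals also switch on, behaved differently: it was at 333, 101.0 and 140 CPM in CD73 KO, against 116, 106 and 106 in WT. CD73 KO replicates 1 and 3 stood above all WT libraries, replicate 1 by far, and replicate 2 lay below them, and without replicate 1 the log2 fold change was 0.13 in place of 0.81.

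**Figure D3:**
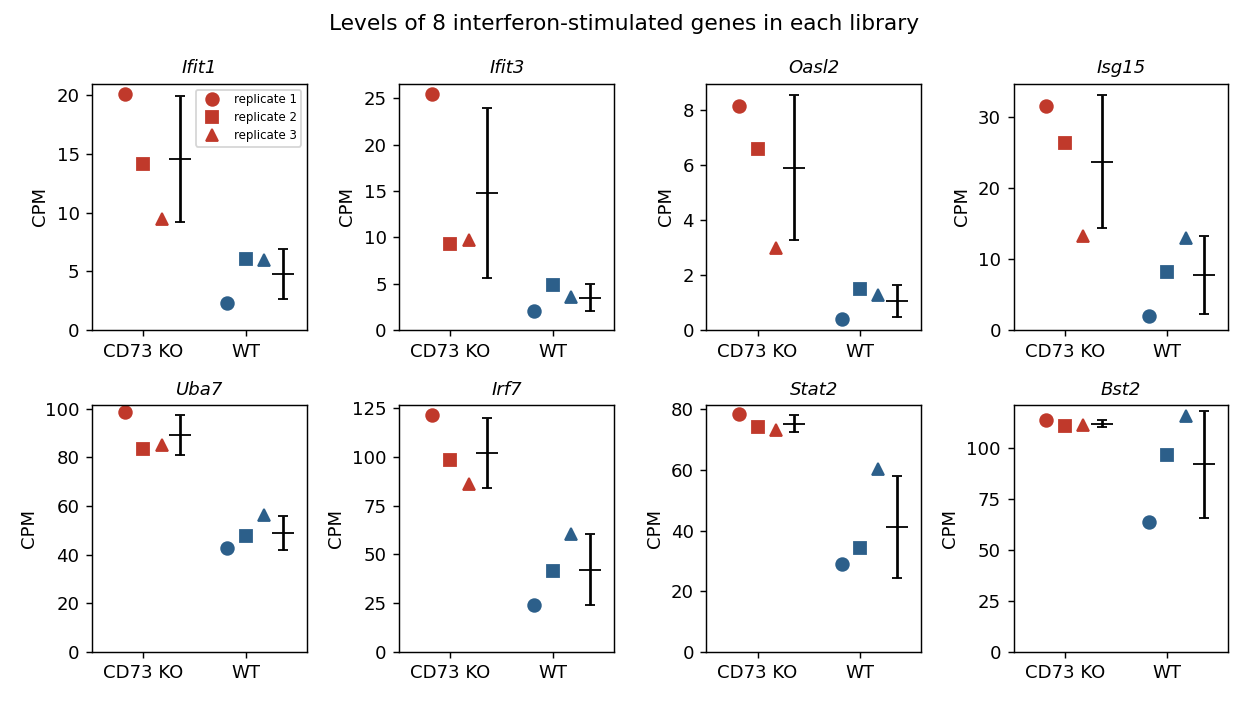
CPM of 8 genes in each library (y axis, from 0), by genotype, with 1 symbol for each replicate number and the mean ± SD (n = 3) in black. Uba7, Irf7, Stat2, Ifit1, Ifit3, Oasl2 and Isg15 do not overlap between genotypes, while Bst2 does through WT replicate 3 at 115 CPM.

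ISG15 is a ubiquitin-like protein that is attached to other proteins by the E1 enzyme UBA7, the E2 enzyme UBE2L6 and, in mice, the ligase HERC6, and removed by USP18. Isg15 itself (chromosome 4) was at 31.6, 26.3 and 13.3 CPM in CD73 KO, against 2.02, 8.10 and 13.0 in WT. The groups were separate by a narrow margin between CD73 KO replicate 3 and WT replicate 3, and the log2 fold change was 1.70 ± 0.65 (adjusted p = 0.503). Uba7 (chromosome 9, 107975505 to 107984060) had the smallest p of the 36 genes, rank 9 of 12242. It was at 98.6, 83.5 and 85.3 CPM in CD73 KO, against 42.8, 47.5 and 56.4 in WT, a log2 fold change of 0.87 ± 0.13 with a gap between the groups. Usp18, which also restrains signalling at IFNAR, was at 28.6, 33.6 and 20.3 CPM in CD73 KO, against 2.80, 10.3 and 12.7 in WT (1.73 ± 0.49, adjusted p = 0.370). Herc6 was at 47.7, 51.5 and 33.8 CPM in CD73 KO, against 23.6, 26.8 and 36.02 in WT (0.63 ± 0.19), with WT replicate 3 above CD73 KO replicate 3. Ube2l6, the E2 of the pathway and not among the 36, was at 20.3, 22.3 and 10.3 CPM in CD73 KO, against 4.51, 9.16 and 12.8 in WT (1.04 ± 0.40, unadjusted p = 0.0317).

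The IFIT proteins bind foreign RNA ends and block translation, and their genes lie side by side on chromosome 19, from 34550694 (start of Ifit2) to 34650009 (end of Ifit1). Ifit1 was at 20.1, 14.1 and 9.43 CPM in CD73 KO, against 2.33, 6.07 and 5.98 in WT, a log2 fold change of 1.65 ± 0.39 (adjusted p = 0.288). Ifit3 was at 25.4, 9.31 and 9.72 CPM in CD73 KO, against 2.02, 4.90 and 3.56 in WT (2.12 ± 0.49, adjusted p = 0.307). Both were without overlap, and CD73 KO replicate 1 was the highest library for each. Ifit2 differed least: 56.2, 41.7 and 31.7 CPM in CD73 KO against 32.7, 30.4 and 23.1 CPM in WT (0.59 ± 0.21), with CD73 KO replicate 3 below WT replicate 1. Ifit3b had only 66, 28 and 19 counts in CD73 KO and 1, 6 and 5 in WT (2.49 ± 0.58). The longest coding transcripts of Ifit3 and Ifit3b matched at 97.8% identity over 1700 bases, so reads can be split between them. Their summed counts gave a log2 fold change of 2.16 ± 0.50 (adjusted p = 0.314).

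The OAS enzymes sense double-stranded RNA and make the messenger that activates RNase L, and the OAS-like genes are their relatives. Oasl2 was at 8.14, 6.60 and 2.98 CPM in CD73 KO, against 0.389, 1.49 and 1.28 in WT (2.58 ± 0.50, adjusted p = 0.187). Oasl1, whose product restrains Irf7 translation, was at 9.31, 5.68 and 4.24 CPM in CD73 KO, against 1.09, 2.34 and 1.57 in WT (1.98 ± 0.38, adjusted p = 0.167). Oas1a was at 23.1, 16.9 and 9.53 CPM in CD73 KO, against 1.79, 5.43 and 7.40 in WT (1.83 ± 0.51). These 3 genes and Oas2 (1.52 ± 0.45) did not overlap between genotypes, though Oasl2 and Oas2 reached the filter on low counts in only 2 WT libraries each. Oas3 did overlap: it was at 207, 228 and 117 CPM in CD73 KO, against 44.9, 122 and 145 in WT (0.83 ± 0.48, adjusted p = 0.623). Oas1g, a near-identical copy of Oas1a, had at most 2 counts in a library, and summing the pair left the fold change of Oas1a at 1.84.

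Eif2ak2 and Isg20 complete the RNA-directed group. Eif2ak2 encodes PKR, the kinase that stops translation when it binds double-stranded RNA, and was at 104, 138 and 70.1 CPM in CD73 KO, against 44.3, 60.3 and 74.5 in WT (0.81 ± 0.27). Isg20, an RNA exonuclease, was at 42.5, 28.5 and 20.7 CPM in CD73 KO, against 11.4, 21.5 and 18.1 in WT (0.86 ± 0.30). For both, CD73 KO replicate 3 lay below the highest WT library.

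Of 5 effectors that act at membranes, 2 had an unadjusted p under 0.05 on the higher side, Rtp4 and Rsad2 (5.75% of all tested genes). Of these, Rsad2 reached the filter on low counts in only 2 WT libraries, so its entry leaned on the CD73 KO libraries. Rtp4, a chaperone of membrane receptors, was at 67.8, 33.2 and 17.5 CPM in CD73 KO, against 2.88, 12.04 and 10.5 in WT (2.27 ± 0.70, adjusted p = 0.431). Rsad2, which encodes viperin, an enzyme that makes a chain-terminating nucleotide, was at 10.5, 6.67 and 2.60 CPM in CD73 KO, against 0.855, 2.66 and 1.85 in WT (1.94 ± 0.55), with the library labelled WT replicate 2 just above CD73 KO replicate 3. Mx1, a dynamin-like GTPase, was at 105, 73.6 and 49.7 CPM in CD73 KO, against 19.8, 52.3 and 44.0 in WT (0.99 ± 0.42, unadjusted p = 0.0560). At the other end were Bst2 and Ifitm3. Bst2 (tetherin), which holds budding virus at the cell surface, was at 114, 111 and 111 CPM in CD73 KO, against 63.8, 96.3 and 115 in WT (0.29 ± 0.18, unadjusted p = 0.147). Ifitm3, a membrane protein that blocks viral fusion, was at 29.9, 25.0 and 39.2 CPM in CD73 KO, against 29.8, 28.0 and 19.4 in WT (0.27 ± 0.20, unadjusted p = 0.209), and its groups overlapped through CD73 KO replicate 2.

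Parp9 and Dtx3l, a pair whose products act as a ubiquitin ligase complex, lie next to each other on chromosome 16 and share 458 exon bases on opposite strands, so with no strand setting of the counting given, their reads may not be fully told apart. Parp9 was at 221, 205 and 132 CPM in CD73 KO, against 96.2, 139 and 144 in WT (0.56 ± 0.21). Dtx3l was at 249, 202 and 122 CPM in CD73 KO, against 115, 141 and 122 in WT (0.60 ± 0.23). In both, CD73 KO replicates 1 and 2 stood above all WT libraries and CD73 KO replicate 3 did not. Parp14, their neighbour and an ADP-ribosyltransferase, was at 185, 185 and 124 CPM in CD73 KO, against 77.3, 107 and 115 in WT, without overlap (0.73 ± 0.19, adjusted p = 0.326). Parp12, an ADP-ribosyltransferase as well, had a log2 fold change of 0.86 ± 0.36 at 7.83 ± 2.97 CPM in CD73 KO, against 4.48 ± 1.74 in WT (SD, n = 3). Trim30a, an interferon-induced TRIM protein, was at 295, 337 and 170 CPM in CD73 KO, against 79.4, 155 and 170 in WT (0.99 ± 0.36). Its transcript matched Trim30d at 90.1% identity, and Trim30d had 75 to 716 counts per library, so the level of Trim30a is uncertain.

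The 7 remaining effectors all had an unadjusted p under 0.05 on the higher side (5.75% of all tested genes), and 4 of them did not overlap (7.59%). Both counts include Ifi44, which reached the filter on low counts in only 1 WT library, so its entry leaned on the CD73 KO libraries. Ifi44, of uncertain function, had 110, 209 and 37 counts in CD73 KO and 0, 7 and 7 in WT, where 0 counts allow up to 0.233 CPM in WT replicate 1. Its log2 fold change of 3.93 ± 0.87 (adjusted p = 0.288) rests on those few WT counts. Ifi27l2a, a small mitochondrial protein and the most abundant of the 36 genes, was at 742, 466 and 510 CPM in CD73 KO, against 132, 244 and 326 in WT (1.29 ± 0.35, adjusted p = 0.368). Without it the summed level of the other 35 genes was still separate between genotypes, at 3435, 2836 and 2040 CPM against 1165, 1746 and 1846 CPM. Xaf1, a regulator of cell death, was at 78.9, 73.4 and 48.8 CPM in CD73 KO, against 19.2, 34.4 and 46.8 in WT (1.02 ± 0.32). Ifi35 was at 84.9, 84.6 and 88.3 CPM in CD73 KO, against 48.7, 64.3 and 76.6 in WT (0.45 ± 0.15), a small difference without overlap. Cmpk2, a nucleotide kinase beside Rsad2 on chromosome 12, Samd9l, an inhibitor of translation, and Lgals3bp, a secreted glycoprotein, had log2 fold changes of 1.02 ± 0.41, 0.81 ± 0.29 and 0.80 ± 0.31, and CD73 KO replicate 3 lay within or below the WT range for Cmpk2, Samd9l and Lgals3bp.

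**Figure D4:**
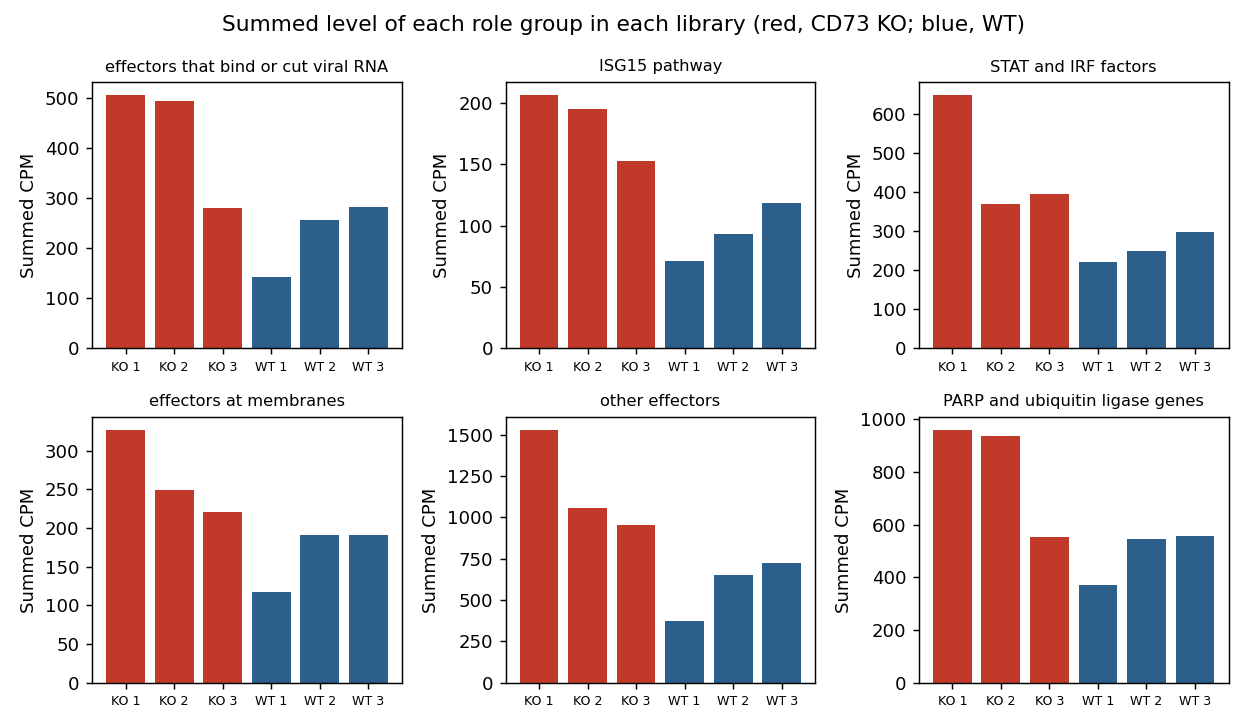
Summed CPM of the genes of each role group (panels, y axis from 0) in each library, CD73 KO in red and WT in blue. The sums of the ISG15 pathway run from 153 to 207 CPM in CD73 KO, those of WT from 71.2 to 118 CPM, while CD73 KO replicate 3 lies within the WT range for the RNA-directed effectors and for the PARP and ubiquitin ligase genes.

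Annotated exons of 5 genes are shared with another gene on the same strand, by 1269 bases for Herc6, 296 for Rtp4, 233 for Uba7, 123 for Irf9 and 110 for Parp14, and reads there cannot be assigned to 1 gene. On the opposite strand, besides Parp9 and Dtx3l, Ifi35 shares 290 bases, Irf1 135, Usp18 124, Irf7 45 and Oasl1 38. Eif2ak2 shares 174 with Gm26637 and 47 with n-R5s29. With no strand setting of the counting given, reads there may not be fully told apart either.

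DESeq2's 11 calls were Uba7, Ifit3, Irf7, Oasl2, Oasl1, Ifit1, Irf9, Stat2, Xaf1, Rsad2 and Parp14. Its adjusted p-values for these ran from 1.4e-05 for Uba7 to 0.0260 for Parp14. Over all alternatives the adjusted p of Uba7 ran from 1.04e-07 to 0.322 and that of Parp14 from 9.19e-06 to 0.939. Rsad2 was called although its groups overlapped, through a single WT library.

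The upstream part of the pathway was compared next. Among 20 genes for type I and type III interferons, 15 had 0 counts in every library, Ifnb1 among them, and the other 5 had at most 3 counts in a CD73 KO library and 0 in WT. A count of 0 allows up to 0.160 to 0.427 CPM. Ifng, the interferon that CD8 T cells make, was at 50.2, 51.0 and 47.7 CPM in CD73 KO, against 61.3, 75.3 and 56.0 in WT. The CD73 KO libraries lay below all WT libraries, opposite in direction to the 36 genes (-0.37 ± 0.13, unadjusted p = 0.0155, adjusted p = 0.415).

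Of the 8 tested receptor and kinase genes, 1 had an unadjusted p under 0.05, higher in CD73 KO (5.75% of all tested genes). This was Ifnar2, a chain of the type I receptor, at 48.8, 44.6 and 52.7 CPM in CD73 KO, against 39.0, 37.7 and 35.3 in WT (0.38 ± 0.12, unadjusted p = 0.00870, adjusted p = 0.368). Ifnar1, the other chain, had a log2 fold change of 0.22 ± 0.11 (unadjusted p = 0.0752). The kinases had 0.02 ± 0.12 (Jak1), 0.29 ± 0.13 (Jak2) and -0.08 ± 0.10 (Tyk2). The receptor chains Ifngr1, Ifngr2 and Il10rb had 0.04 ± 0.20, 0.16 ± 0.35 and 0.08 ± 0.19, and the direction of these 3 and of Jak1 turned when single libraries were left out. Ifnlr1, the chain of the type III receptor, had 0 counts in every library.

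Of the other STAT and IRF genes described here, Irf2 had an unadjusted p under 0.05. It was at 70.8, 87.7 and 76.7 CPM in CD73 KO, against 63.2, 64.5 and 67.3 in WT (0.27 ± 0.11). Stat3, Stat4, Stat5a, Stat5b and Stat6 had log2 fold changes of 0.12 ± 0.19, 0.02 ± 0.10, -0.02 ± 0.10, 0.01 ± 0.12 and -0.13 ± 0.10. Irf3, Irf4, Irf5 and Irf8 had 0.01 ± 0.17, 0.35 ± 0.22, -0.19 ± 0.19 and -0.13 ± 0.27. The direction of 6 of these (Stat3, Stat4, Stat5a, Stat5b, Irf3 and Irf8) turned when single libraries were left out. Of 13 negative regulators, 3 had an unadjusted p under 0.05, all higher in CD73 KO (5.75% of all tested genes). They were Socs1, the inhibitor of JAK kinases (0.60 ± 0.22), Pias1, an inhibitor of STAT signalling (0.41 ± 0.12), and Irf2bp2, a partner of IRF2 (0.59 ± 0.18). The adjusted p-values of all these lists were above 0.05 in edgeR.

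Outside the 36 genes, 48 of 53 further interferon-stimulated genes were tested. They were measured in the same 6 libraries and listed with earlier results of these data known, so they are not independent support. Higher levels in CD73 KO were found for 45 (52.3% of all tested genes) and lower levels for 3 (median log2 fold change 0.44). An edgeR unadjusted p under 0.05 was found for 30, all on the higher side, against 5.75% of all tested genes on that side. The direction of 6 of the 48 (Ifitm1, Ifitm2, Ifi27, Plscr1, Nt5c3 and Azi2) turned when single libraries were left out. The groups did not overlap for 20 of the 48, all higher in CD73 KO, against 7.59% of all tested genes. The smallest edgeR adjusted p was 0.171, for Trim12a. The 5 of smallest p were Trim12a, Rnf213, Daxx, Helz2 and Phf11b. Rnf213, a large ubiquitin ligase, was at 565, 582 and 331 CPM in CD73 KO, against 173, 224 and 237 in WT (1.22 ± 0.22, adjusted p = 0.186). Helz2, a helicase, was at 372, 382 and 293 CPM in CD73 KO, against 162, 186 and 266 in WT (0.77 ± 0.18, adjusted p = 0.287). Trim12a, Daxx and Phf11b had log2 fold changes of 0.69 ± 0.13, 0.52 ± 0.11 and 0.60 ± 0.16. Ifi44l had 0 counts in every library. Of 10 genes known for their response to interferon gamma, 5 were tested. An unadjusted p under 0.05 on the higher side was found for 2 (5.75% of all tested genes). These were Socs1 and Cd274 (0.43 ± 0.17), the gene of PD-L1. Cxcl9 and Ido1 had 0 counts in every library.

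**Figure D5:**
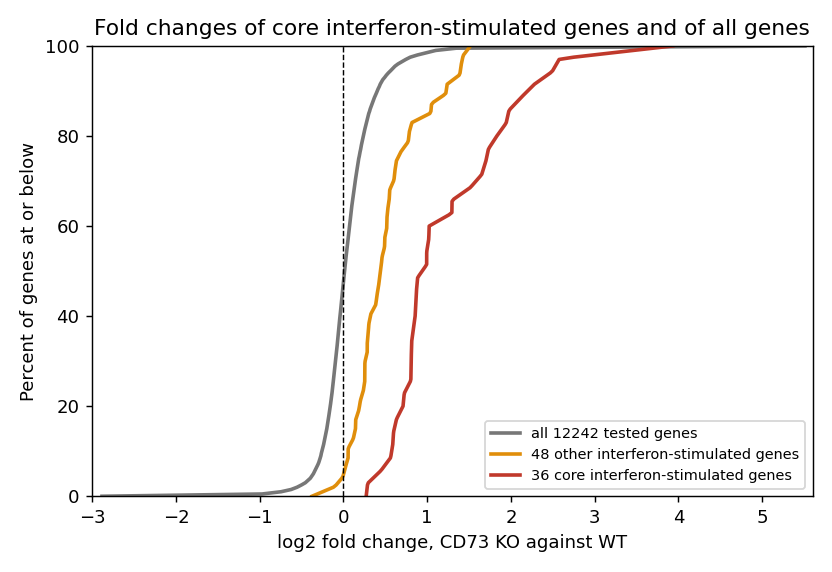
Cumulative percent of genes (y axis) by log2 fold change, CD73 KO against WT (x axis), for all 12242 tested genes (grey), 48 other interferon-stimulated genes (orange) and the 36 core genes (red). The medians are 0.01, 0.44 and 0.94.

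Markers of other cells were read beside these results. Of the 6 plasmacytoid dendritic cell markers, Siglech, Klk1 and Ccr9 had 0 counts in every library, and the list summed to 5.20 to 11.4 CPM in CD73 KO, against 5.99 to 10.5 in WT. Of 9 myeloid markers, Lyz2, Csf1r, C1qa and Spi1 were at 0, but the list summed to 83.9 to 104 CPM in CD73 KO, against 62.5 to 72.9 in WT, mostly through Ctss (0.61 ± 0.14). Fcer1g, a myeloid marker at lower levels, went the other way, at 1.70, 0.594 and 2.31 CPM in CD73 KO, against 6.69, 7.67 and 0.854 in WT (-1.79 ± 0.72, unadjusted p = 0.0395, adjusted p = 0.504). Of 4 stromal and endothelial markers, Col1a2 and Cdh5 were at 0 and the sum was 66.9 to 105 CPM in CD73 KO, against 46.6 to 63.4 in WT, mostly through Pecam1. Of 7 conventional dendritic cell markers, Xcr1, Clec9a and Cd209a were at 0 and the sum was 7.99 to 27.3 CPM in CD73 KO, against 7.08 to 21.5 in WT. Of 7 B cell markers, Ms4a1 and Pax5 were at 0 and the sum, mostly Ighm, was 778 to 867 CPM in CD73 KO, against 709 to 783 in WT. Ighd of that list was at 38.2, 38.8 and 46.2 CPM in CD73 KO, against 27.9, 18.7 and 24.1 in WT, without overlap (0.80 ± 0.16, edgeR adjusted p = 0.203, DESeq2 adjusted p = 0.00613, over all alternatives 0.000152 to 0.780). The 5 NK cell markers summed to 440 to 507 CPM in CD73 KO, against 389 to 441 in WT, mostly through Klrd1. Of the 4 tested NK cell markers, 2 were higher in CD73 KO and 2 lower, with a median log2 fold change of -0.05. The 4 CD4 T cell markers summed to 24.3 to 28.3 CPM in CD73 KO and 28.0 to 35.5 CPM in WT. All 3 erythroid markers were at 0. The part of these marker differences in the higher interferon gene levels was not tested.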

How the data were processed

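Counts of reads per gene, not normalized, were deposited by the authors for 6 libraries. The tools listed in the submitters' processing notes are fastp, HISAT2 and featureCounts, and the build is mm10. For versions, strand setting and annotation release: not given in the sources used here. Symbols were found for 49326 of 49671 Ensembl identifiers. Gene coordinates and exon lengths came from GENCODE M21, whose assembly GRCm38 is the one called mm10.

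A gene entered the test if it passed edgeR's filterByExpr (minimum count 10, minimum total 15), and 12242 did, with all 36 interferon-stimulated genes. The quasi-likelihood F-test of edgeR 4.0.16 (R 4.3.3, TMM, robust dispersions, legacy fit) took all 6 libraries, and Benjamini-Hochberg adjustment covered every tested gene at a threshold of 0.05. The standard error equals the absolute log2 fold change over the square root of F. Alternatives were other scalings, filters and fits, DESeq2 1.42.0, limma-voom (limma 3.58.1), thinning, the replicate number as a block and each library left out. Both replicates 1 were left out together as a choice made after seeing the data. The fits were tested on simulated data. Copies are transcripts that blastn aligned at 90% identity or more over at least 40% of the longest coding transcript.

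Named are the 36 genes, Nt5e, the receptor, kinase, STAT and IRF genes tested (some are not reported here), and in other lists at most 5 genes of smallest unadjusted p under 0.05, besides genes at 0. Genes and lists were chosen with earlier results of these data known. For a count of 0 the limit is 3 counts, for counting error only.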

Additional observations from a re-analysis of the deposited data

How the results depend on the processing

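All 36 genes stayed higher in CD73 KO in each of the 17 alternatives, and 0 of 615 single values turned direction. The median log2 fold change ran from 0.61 without CD73 KO replicate 1 and WT replicate 1 to 1.17 without WT replicate 3, and with 1 library left out from 0.70 to 1.17. The count past the adjusted threshold, 0 of 36, was 20 with low counts kept in (21315 genes tested), 11 with DESeq2 and 0 to 1 with 1 library left out. The cause was not tested. The count with an unadjusted p under 0.05, 31 of 36, was 19 to 32 with 1 library left out (2.96% to 7.28% of all tested genes in those fits) and 19 with the replicate number as a block (5.89%). Deviations of same-numbered libraries of the 2 genotypes had correlations of 0.169, -0.178 and 0.0345 for replicates 1, 2 and 3. Libraries with different numbers reached higher values: 0.2765 for CD73 KO replicate 1 with WT replicate 2, and 0.3675 for CD73 KO replicate 2 with WT replicate 3. The lowest was -0.345, for CD73 KO replicate 1 with WT replicate 3. Deviations from a mean of 3 libraries depend on each other, so these values do not settle if the numbers pair the samples. That count was 19 without CD73 KO replicate 1 and WT replicate 1, a fit with fewer samples. The count without overlap, 19 of 36, was 19 to 33 with 1 library left out, highest without CD73 KO replicate 3 (15.6% of all tested genes). With 3 libraries against 2, separation was more frequent among all genes too, at 9.94% to 16.4%, so these counts are not comparable with the 19. With all libraries thinned to 6934150 counts, 32 genes had an unadjusted p under 0.05 (5.31% of all genes tested there) and 20 did not overlap (7.27%).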
